A study of Mus musculus with 81 samples.

Results

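Microglia that carry both Clec7a and CD229 on their surface but not CD11c were compared between mice that lack Mef2a in Cx3cr1-expressing cells and control mice after 5 weeks of cuprizone. The members are the 6 libraries of that gate, 3 labelled Mef2aKO and 3 labelled Cre, of 81 libraries in the series. They were chosen by genotype, diet and gate as labelled, and no measured value entered the choice. Mef2aKO mice had the genotype Cx3cr1CreERT2/WT::Mef2afl/fl and Cre mice Cx3cr1CreERT2/WT, so both groups carry the Cre driver in place of 1 Cx3cr1 copy and differ, per the labels, in the floxed Mef2a alleles. All 6 libraries are polyadenylated RNA of adult male C57BL/6 mice fed 0.2% cuprizone, with the brains of 2 to 6 mice pooled before sorting. The labels used here give no tamoxifen dose or time and do not name the exon between the loxP sites. The Cx3cr1 driver is also active in macrophages at the borders of the brain. The isolation buffer held Flavoperidol, an inhibitor of transcription. The same contrast was available in 3 other pairs of groups of 3 libraries each, namely Clec7apos CD229neg CD11cneg cells, Clec7apos CD229pos CD11cpos cells and baseline cells of mice on a regular diet. The labels of these baseline cells name no Clec7a, CD229 or CD11c gate.

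MEF2A is a MADS-box transcription factor that binds an A/T-rich DNA element as a homodimer or with the related MEF2C and MEF2D, and recruits either co-activators or class II histone deacetylases. MEF2 proteins are among the factors that define the regulatory DNA of resting microglia. Cuprizone, a copper chelator, kills oligodendrocytes and strips myelin, and microglia that clear the debris switch on receptors and secreted factors such as Clec7a, a glucan-binding lectin, and the integrin CD11c (Itgax). CD229 is the product of Ly9, a homophilic receptor of the SLAM family.

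The 6 libraries held 8045552 to 11863091 counted reads, and the 29 libraries fitted together 5959509 to 13972985. The first principal component of the 6 libraries took 38.6% of the variance and separated the genotypes, while the second, with 18% of it, set Cre replicate 3 (score 23.1) apart from the other Cre libraries (scores -10.3 and -17.1). Levels below are CPM (reads per 1e6 library reads, scaled by TMM, a normalization across libraries), and fold changes are log2 of Mef2aKO over Cre ± SE from edgeR's quasi-likelihood test with Benjamini-Hochberg adjusted p, called past the threshold under 0.05. The labels name replicates but not separate animals for each, so p-values measure the spread between these pools. In RNA of sorted populations, fewer cells of a type and less RNA per cell cannot be told apart. The sum of 9 microglial markers was 9880 to 10500 CPM in Mef2aKO libraries and 9170 to 9450 CPM in Cre libraries, and lists for other cells were summed the same way. Summed levels in Mef2aKO and Cre libraries were 0.292 to 0.775 and 0.463 to 2.35 CPM for T and NK cells, 6.59 to 9.96 and 9.61 to 15.6 CPM for B cells, and at most 0.292 and 0.288 CPM for neutrophils. They were 6.76 to 7.97 and 9.5 to 11.8 CPM for monocytes, and 4.92 to 7 and 5.95 to 7.31 CPM for dendritic cells. Larger sums were those for astrocytes (85.6 to 114 and 96.7 to 106 CPM) and endothelium (190 to 219 and 285 to 318 CPM). Slc1a3 (mean 90.9 CPM in Mef2aKO and 89.4 CPM in Cre) and Flt1 (159 and 264 CPM) made up most of these. Sums for oligodendrocytes and border macrophages are given further on. Most of the B cell sum was Cd79b (mean 7.89 CPM in Mef2aKO and 11.4 CPM in Cre) and most of the monocyte sum Ccr2 (5.87 and 8.58 CPM), while the T cell genes Cd3e, Cd3d, Cd3g and Cd8a, the B cell factor Pax5 and the neutrophil genes Ly6g and Retnlg were at 0 in all 6 libraries.

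The targeted gene itself kept its reads. Mef2a (chromosome 7, 67231163 to 67372858, minus strand, mm10) had 603, 608 and 595 CPM in Mef2aKO libraries, against 563, 583 and 484 CPM in Cre libraries, a change of 0.15 ± 0.08 (adjusted p = 0.347). The deposited TPM of Mef2a averaged 152 ± 4.71 in Mef2aKO and 138.8 ± 11.7 in Cre (SD, n = 3 each). A count over the whole gene does not show the loss of 1 exon from an otherwise stable transcript, so the labels could not be checked this way. The partners Mef2c (0.16 ± 0.07, adjusted p = 0.264) and Mef2d (0.01 ± 0.05, adjusted p = 0.965) also did not pass, and neither did any of the other 12 tested MEF2 cofactors and regulators. Neither of 2 sorting genes passed the test: Ly9 averaged 285 ± 13.6 CPM in Mef2aKO and 291 ± 14.2 CPM in Cre, and Clec7a 602 ± 35.6 and 592 ± 48.1 CPM (SD, n = 3 each). Itgax, whose product was gated out, had 163, 182 and 218 CPM in Mef2aKO libraries, against 307, 331 and 313 CPM in Cre libraries. All Mef2aKO values lay below all Cre values, a change of -0.76 ± 0.12 (adjusted p = 4.36e-05) in cells sorted as CD11c negative in both genotypes.

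The promoter windows of RefSeq, GRCm38.p6, which run from 250 bases before to 50 after the annotated start, were searched for the MEF2 motif on both strands. It was present for 2.38% of the 210 genes with a window that rose, 2.82% of the 284 that fell, and 2.05% of all 10327 tested genes with one. Of the 74 genes named here that passed the threshold, 56 had a window and 1 held the motif, Atf3. The Mef2a promoter holds it too, beginning 2 bases before the start, and both windows are shown because they are the target gene and the 1 named gene with a match (the match in capitals). Each match reads on both strands at the same position, and the motif's A/T-rich centre can overlap a TATA-like element. A match describes the letters of the window only, and binding was not measured in these libraries.
Mef2a promoter, chr7:67372809-67373108, minus strand: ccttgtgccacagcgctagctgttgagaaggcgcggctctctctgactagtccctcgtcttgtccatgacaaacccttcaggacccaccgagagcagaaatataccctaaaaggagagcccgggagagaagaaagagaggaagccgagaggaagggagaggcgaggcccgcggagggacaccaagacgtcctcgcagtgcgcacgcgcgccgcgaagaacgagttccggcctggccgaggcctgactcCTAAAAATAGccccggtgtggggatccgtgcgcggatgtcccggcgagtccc
Atf3 promoter, chr1:191183284-191183583, minus strand: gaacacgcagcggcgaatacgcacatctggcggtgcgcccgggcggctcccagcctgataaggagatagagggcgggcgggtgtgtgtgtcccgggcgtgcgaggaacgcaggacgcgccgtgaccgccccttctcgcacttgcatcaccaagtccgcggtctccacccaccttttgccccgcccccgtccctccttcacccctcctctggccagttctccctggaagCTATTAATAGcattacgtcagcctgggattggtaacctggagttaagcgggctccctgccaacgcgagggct

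Across the transcriptome, 647 of 13204 tested genes passed the threshold (4.90%), of which 276 were higher (2.09%) and 371 lower (2.81%) in Mef2aKO. The falls were larger: 91 lower genes and 33 higher ones changed by more than 2-fold, and the median change was -0.576 among lower genes and 0.393 among higher ones. Groups did not overlap for 642 of the 647, while 23.1% of all tested genes had groups that did not overlap. Leaving out Mef2aKO replicate 1 gave 425 genes and leaving out Mef2aKO replicate 2 gave 430.

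**Figure D1:**
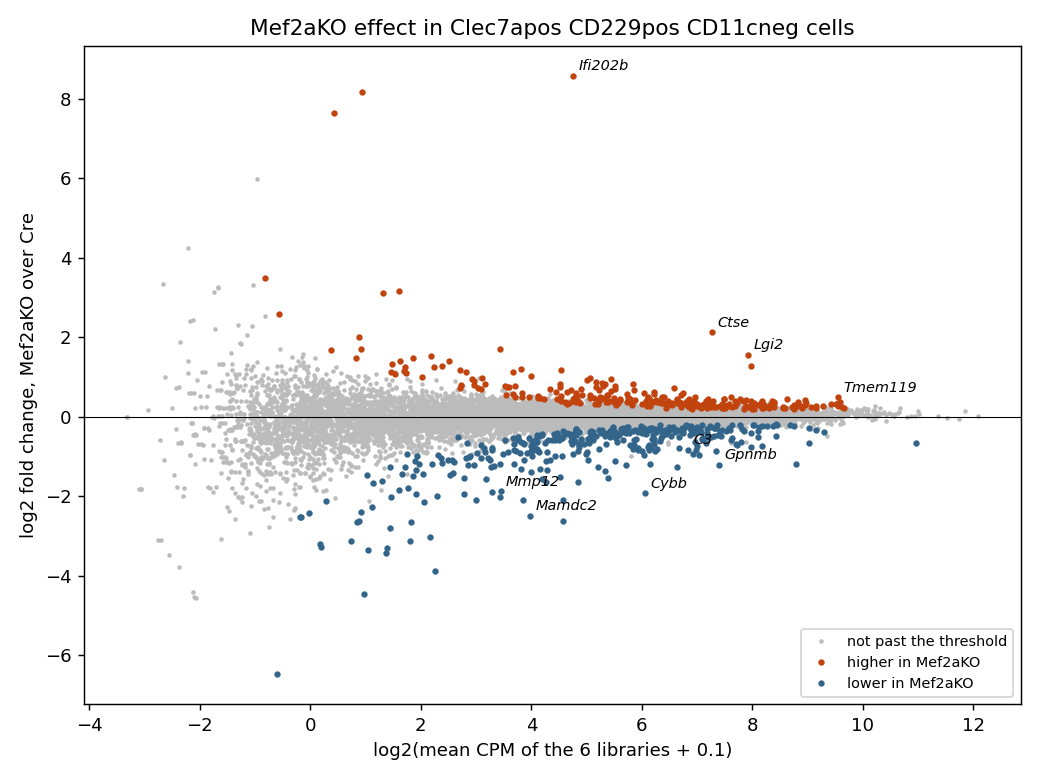
Each point is 1 tested gene, with log2 of its mean CPM over the 6 libraries plus 0.1 on the x axis and the log2 fold change of Mef2aKO over Cre on the y axis. The 276 higher genes (orange) and 371 lower genes (blue) span the range of levels, and the few points beyond 6 in either direction are genes with few or no reads in 1 genotype.

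The largest rise belonged to a gene almost unread in controls. Ifi202b, an interferon-inducible gene of the Ifi200 family, had 59.5, 57.5 and 44.6 CPM in Mef2aKO libraries, against 0.288, 0 and 0.0841 CPM in Cre libraries. That is 1425 reads in Mef2aKO and 4 in Cre, a ratio of 421 with a 95% counting interval of 164 to 1550. Its part in a stretch of chromosome 1 is described further on. Hmga2 had 95 reads in Mef2aKO and 0 in Cre, at least 37.5-fold higher against a floor of 3 reads over the group, and Ffar4 had 0 in Mef2aKO and 35 in Cre, at least 9.86-fold lower. These last 2 genes were chosen after their values were seen. So was Hmga2-ps1, which lies in that stretch of chromosome 1 and rose by 0.81 ± 0.11 (adjusted p = 2.31e-06). Whether reads were shared between Hmga2 and Hmga2-ps1 was not tested.

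Among annotated genes with a mean of at least 5 CPM whose groups did not overlap, the largest rises after Ifi202b were those of Ctse, Pcp4 and Lgi2. Ctse, the aspartic protease cathepsin E, had 227, 254 and 269 CPM in Mef2aKO libraries, against 54.8, 57.2 and 59.9 CPM in Cre libraries (2.12 ± 0.17, adjusted p = 2.31e-10). Lgi2, whose product is secreted and carries leucine-rich repeats, had 415, 344 and 327 CPM in Mef2aKO libraries, against 147, 110.1 and 113 CPM in Cre libraries (1.55 ± 0.13, adjusted p = 2.31e-10). For both, the lowest Mef2aKO library lay above the highest Cre library by more than the whole range of the Cre libraries. Pcp4, a small calmodulin regulator, averaged 16.5 ± 3.00 CPM in Mef2aKO and 5.01 ± 0.842 CPM in Cre (1.71 ± 0.25, adjusted p = 2.06e-05). Sgsh, which removes sulfate from heparan sulfate in lysosomes, rose by 1.19 ± 0.15 (adjusted p = 1.52e-06), and its neighbour Slc26a11, an anion transporter gene read in the opposite direction from the adjoining stretch of chromosome 11, rose by 1.28 ± 0.24 (adjusted p = 0.000621). Fads2, a fatty acid desaturase, averaged 8.08 ± 1.35 CPM in Mef2aKO and 3.07 ± 0.766 CPM in Cre (1.39 ± 0.32), and its adjusted p of 0.00533 became 0.0526 without Mef2aKO replicate 1. The rest of the 12 largest were Igsf8, Slco4a1, Ripk4, Kcnip3 and Syt6, at 1.12 to 1.28, of which Syt6 without Mef2aKO replicate 1 (adjusted p = 0.0896) and Ripk4 without Mef2aKO replicate 3 (0.0515) no longer passed.

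**Figure D2:**
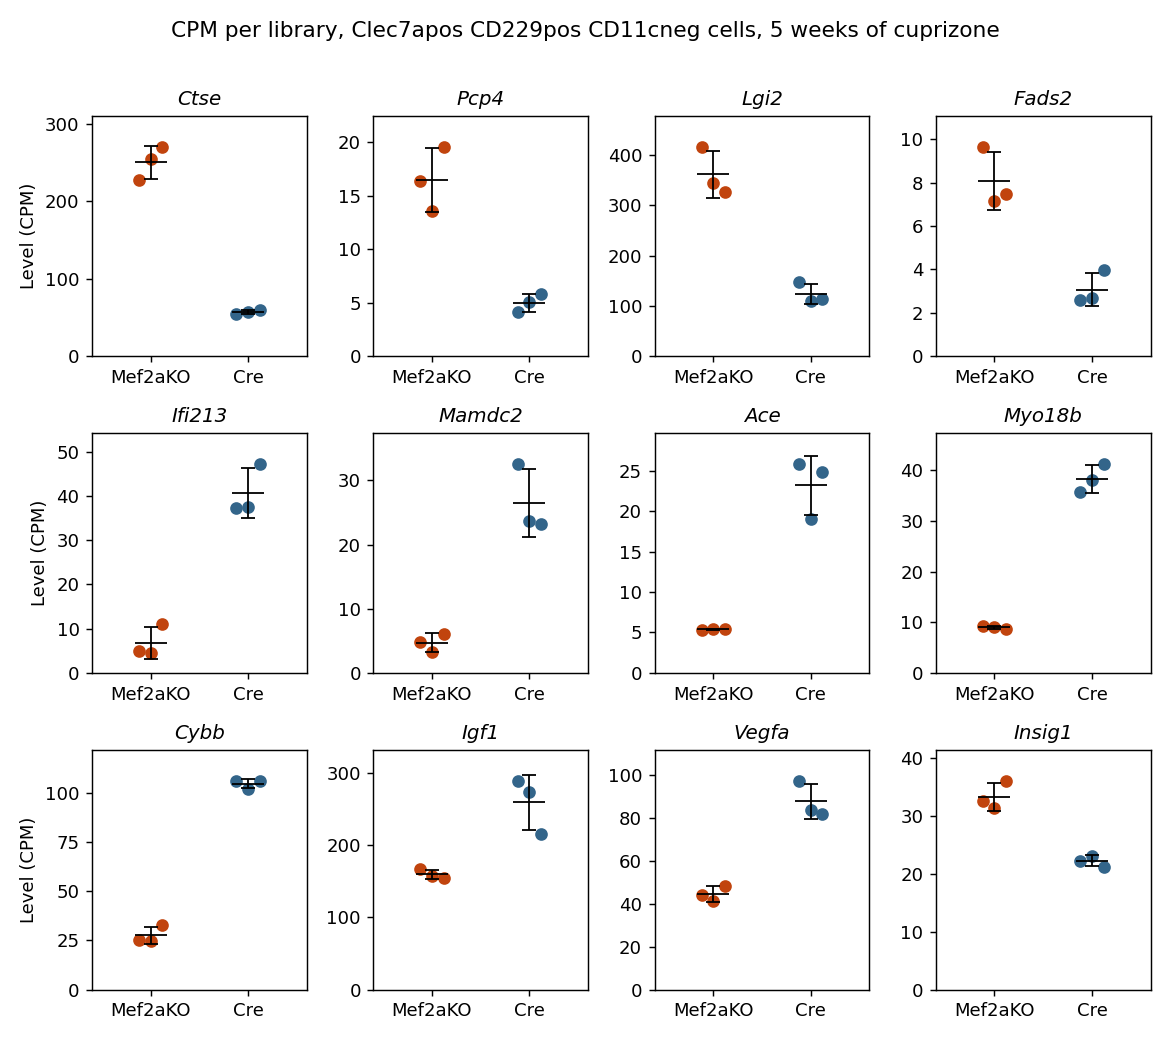
Each panel shows 1 gene, with its level in CPM on the y axis, a point per library, the bar at the mean and whiskers of ± 1 SD (n = 3 each), and Mef2aKO (orange) left of Cre (blue). In all 12 panels the 3 Mef2aKO points lie apart from the 3 Cre points, as for Ctse at 227 to 269 against 54.8 to 59.9 CPM. Groups that do not overlap were a condition of choice for every gene shown except Igf1, Vegfa and Insig1.

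The 12 largest falls by the same rule include Cybb, Mamdc2 and Ace. Cybb, the catalytic subunit of the NADPH oxidase that makes superoxide, had 25.4, 24.8 and 32.7 CPM in Mef2aKO libraries, against 106, 102 and 106 CPM in Cre libraries (-1.93 ± 0.21, adjusted p = 1.73e-07). Mamdc2, an extracellular matrix protein gene, had 4.86, 3.20 and 6.07 CPM in Mef2aKO libraries, against 32.5, 23.6 and 23.2 CPM in Cre libraries (-2.49 ± 0.20, adjusted p = 4.84e-10). Ace, angiotensin-converting enzyme, had 5.35, 5.41 and 5.43 CPM in Mef2aKO libraries, against 25.8, 19.0 and 24.8 CPM in Cre libraries (-2.11 ± 0.27, adjusted p = 2.11e-06). The 3 Mef2aKO libraries of Ace were nearly equal and far below every Cre library. Per the labels an antibody to Ace was in the staining mix, and whether it took part in the gate is not given in the sources used here. Myo18b, an unconventional myosin, averaged 8.99 ± 0.337 CPM in Mef2aKO and 38.3 ± 2.72 CPM in Cre (-2.09 ± 0.19, adjusted p = 1.47e-09), and Trpm6, a magnesium channel, 3.04 ± 0.965 and 12.7 ± 0.804 CPM (-2.09 ± 0.27). Trim72, a membrane repair protein, fell by 2.03 ± 0.21 on the log2 scale. Mmp12, macrophage elastase, averaged 4.63 ± 1.85 CPM in Mef2aKO and 16.9 ± 1.93 CPM in Cre (-1.88 ± 0.29, adjusted p = 4.36e-05). Ifi213, H2-Eb1, Mrc1, F13a1 and Cd163 complete the 12 and are given with their groups.

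Genes of demyelination-reactive microglia were split. Of 24 tested disease-associated genes, 8 fell and none rose, beside 2.81% and 2.09% of all tested genes. Their median was -0.0189, against 0.014 over all genes. Gpnmb, a glycoprotein of lipid-laden phagocytes, had 82.3, 106 and 118 CPM in Mef2aKO libraries, against 239, 252 and 217 CPM in Cre libraries (-1.21 ± 0.13, adjusted p = 1.35e-07). Igf1, a growth factor for oligodendrocyte lineage cells, had 166, 157 and 155 CPM in Mef2aKO libraries, against 288, 273 and 215 CPM in Cre libraries (-0.70 ± 0.13, adjusted p = 0.00043, and 0.1002 by DESeq2). Both genes were lower in every Mef2aKO library than in any Cre library. Lgals3 (galectin-3, -0.79 ± 0.10, adjusted p = 9.16e-07), the secreted phosphoprotein Spp1 (-0.66 ± 0.12, adjusted p = 0.0005), the microglial survival factor Csf1, the chemokine Ccl6, the fatty acid binding protein Fabp5 and Itgax were the others. The other 16 members did not pass, among them the receptor and adaptor Trem2 (0.01) and Tyrobp (0.01), the lipid carrier Apoe (-0.04), the lipase Lpl (0.00) and the receptor tyrosine kinase Axl (0.04).

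Of 20 tested homeostatic genes, 3 rose and 1 fell, beside 2.09% and 2.81% of all tested genes. Their median was 0.0964, and 7 passed when only the 6 libraries were used. Tmem119, a membrane protein that marks microglia, averaged 872 ± 18.7 CPM in Mef2aKO and 622 ± 8.07 CPM in Cre (0.49 ± 0.08, adjusted p = 7.26e-05). The purinergic receptors P2ry13 (567 ± 11.5 and 424 ± 15.8 CPM, 0.42 ± 0.07, adjusted p = 0.000119) and P2ry12 (0.33 ± 0.08, adjusted p = 0.0124) also rose. P2ry12 no longer passed without Mef2aKO replicate 1 (adjusted p = 0.0749) or without Cre replicate 3 (0.0741). Upk1b, a tetraspanin family gene, fell by 0.81 ± 0.16 (adjusted p = 0.000757). Sall1, Csf1r, Fcrls and Cx3cr1 (1355 ± 36.5 CPM in Mef2aKO and 1281 ± 56.9 CPM in Cre) did not pass.

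**Figure D3:**
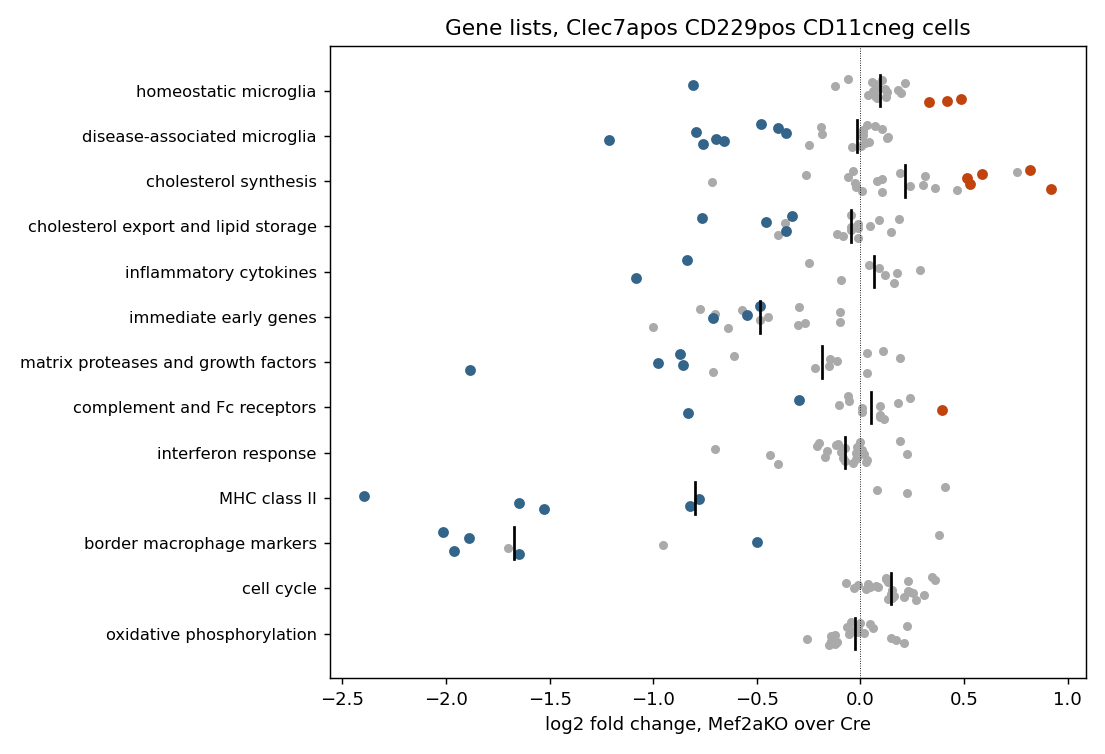
Each point is 1 tested gene, placed by its log2 fold change of Mef2aKO over Cre, in rows of 13 gene lists; orange points rose and blue points fell past the threshold, grey points did not pass, and the black line is the list's median. The MHC class II and border macrophage rows lie furthest left, with medians of -0.8 and -1.67, while cholesterol synthesis has 5 points that rose and none that fell.

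Some secreted growth factors and proteases fell with Mmp12. In the list of 14 tested matrix proteases and growth factors, 4 fell, none rose and 10 did not pass (median -0.185). Of all tested genes, 2.81% fell and 2.09% rose. Vegfa, the vascular growth factor, had 44.2, 41.1 and 48.4 CPM in Mef2aKO libraries, against 97.1, 83.6 and 81.9 CPM in Cre libraries (-0.97 ± 0.11, adjusted p = 4.8e-07). Adamts1, a protease of matrix proteoglycans, averaged 116 ± 13.2 CPM in Mef2aKO and 209 ± 33.7 CPM in Cre (-0.86 ± 0.14, adjusted p = 9.52e-05), and Fgf1, a fibroblast growth factor, 11.2 ± 1.05 and 20.4 ± 1.72 CPM (-0.87 ± 0.15, adjusted p = 0.000119). Flt1, a VEGF receptor listed here as an endothelial marker, fell as well, with 154, 149.7 and 174 CPM in Mef2aKO libraries, against 282, 249 and 259 CPM in Cre libraries (-0.73 ± 0.09, adjusted p = 9.28e-07). The endothelial markers Cldn5 and Tek had no read in any of the 6 libraries, and Pecam1, Cdh5 and Kdr did not pass. Mbp, a myelin protein gene, averaged 62.1 CPM in Mef2aKO and 79.2 CPM in Cre and was the 1 oligodendrocyte marker of 5 tested to pass, beside sums over the 8 markers of 174 to 177 CPM in Mef2aKO libraries and 181 to 196 CPM in Cre libraries. The part of myelin RNA in the sorted cells was not tested.

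Inflammatory genes that passed went both ways, beside 2.09% of all tested genes that rose and 2.81% that fell. Il1b, the cytokine interleukin-1 beta, had 12.6, 13.5 and 12.7 CPM in Mef2aKO libraries, against 22.7, 25.6 and 33.6 CPM in Cre libraries (-1.08 ± 0.14, adjusted p = 2.49e-06). Il1rn, which encodes the antagonist of the same receptor, fell by 0.84 ± 0.16 (adjusted p = 0.000578), and these were 2 of 10 tested cytokines, of which no other passed. Tnfaip3, the NF-kB inhibitor A20, averaged 121 ± 1.39 CPM in Mef2aKO and 172 ± 8.88 CPM in Cre (-0.51 ± 0.08, adjusted p = 8.11e-05), as 1 of 12 NF-kB feedback genes. Of 12 chemokines, Ccl12 rose (90.3 ± 2.56 CPM in Mef2aKO and 58.4 ± 2.60 CPM in Cre, 0.63 ± 0.11, adjusted p = 0.000392) and none fell. Complement C3 averaged 81.8 ± 10.5 CPM in Mef2aKO and 145 ± 20.8 CPM in Cre (-0.83 ± 0.10, adjusted p = 4.89e-07), while C5ar1, the receptor for the C5a fragment, rose by 0.39 ± 0.07 (adjusted p = 0.000164). None of 25 tested interferon-response genes passed in either direction (median -0.0754).

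All 15 tested immediate early genes had values below 0 (median -0.486), and 3 fell past the threshold, beside 2.81% of all tested genes. Egr2, a zinc-finger factor, had 46.4, 41.7 and 37.5 CPM in Mef2aKO libraries, against 67.8, 70.4 and 68.0 CPM in Cre libraries (-0.71 ± 0.10, adjusted p = 9.95e-06). Atf3, the stress-induced factor whose promoter is shown above, had 148, 179.6 and 154 CPM in Mef2aKO libraries, against 239.8, 237 and 227 CPM in Cre libraries (-0.55 ± 0.13, adjusted p = 0.00656, and 0.0609 without Mef2aKO replicate 1). Both sets of Mef2aKO values lay below every Cre value. The antiproliferative gene Btg2 was the third, and it no longer passed in 4 of the 6 fits that each left out 1 library (adjusted p 0.0697 to 0.183), while Fos (-0.64), Egr1 (-0.48) and Ier2 (-0.70) did not pass. The count depends on the settings of the fit. Of the 15, 10 passed when only the 6 libraries were used and 10 without a filter on low counts. Leaving out Mef2aKO replicate 1 left 1. Isolation of cells can itself induce such genes, and its part here was not tested. Of 8 tested genes described as MEF2 targets in other cells, the histone deacetylase gene Hdac9 rose (0.42 ± 0.10, adjusted p = 0.00524, and 0.0577 without Cre replicate 3). Klf4 fell (-1.13 ± 0.29, adjusted p = 0.0129), which was lost without Mef2aKO replicate 1 (0.0585), Mef2aKO replicate 2 (0.0814) or Cre replicate 1 (0.105).

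Members of the cholesterol synthesis list that passed rose, and members of the mixed list of cholesterol export and lipid storage that passed fell. Of all tested genes, 2.09% rose and 2.81% fell. Of 22 tested cholesterol synthesis genes, 5 rose and none fell (median 0.214), and 3 passed without Mef2aKO replicate 1. Insig1, a feedback regulator of sterol synthesis, had 32.7, 31.3 and 36.0 CPM in Mef2aKO libraries, against 22.3, 23.2 and 21.3 CPM in Cre libraries, with no overlap (0.59 ± 0.12, adjusted p = 0.00156). Cyp51, the sterol demethylase (0.53 ± 0.11, adjusted p = 0.00155), Stard4, a sterol transfer protein (0.82 ± 0.18, adjusted p = 0.00353, and 0.0572 without Mef2aKO replicate 1), and the desaturase Sc5d also rose, while the synthase gene Hmgcs1 (0.01) did not pass. Of 18 genes of cholesterol export and lipid storage, 4 fell and none rose (median -0.046), and 2 passed without Mef2aKO replicate 1, Mef2aKO replicate 2 or Cre replicate 2. These were Pltp, a phospholipid transfer protein (-0.76 ± 0.15, adjusted p = 0.001), Pnpla2, the triglyceride lipase (-0.33 ± 0.07, adjusted p = 0.00169), the lipid droplet coat gene Plin2 and the scavenger receptor Msr1. Plin2 and Msr1 each lost the call in 4 of 6 fits without 1 library, and Abca1, Abcg1 and Cd36 did not pass. The subunit gene Atp6v0d2 of the proton pump was the 1 gene of 23 in the lysosome list to pass (0.624 ± 0.324 CPM in Mef2aKO and 4.63 ± 1.33 CPM in Cre). Of 13 TGF-beta signaling genes 1 fell (Ltbp3, which tethers latent TGF-beta, -0.73), and it passed in each of the 6 fits without 1 library. Further lists had 1 or 2 calls each, beside 4.90% of all genes. Of 15 glycolysis genes 2 fell, and none passed without Mef2aKO replicate 1 or Mef2aKO replicate 2, and 1 without Cre replicate 2 or Cre replicate 3. Of 14 lineage transcription factors 2 rose, Etv5 (0.27) and Maf (0.36), and Maf lost its call without Mef2aKO replicate 1, 2 or 3 or Cre replicate 3 (adjusted p 0.0558 to 0.294). Of 10 MHC class I genes 1 fell, the activator Nlrc5 (-0.31), with an adjusted p of 0.0697 without Mef2aKO replicate 3. Of 10 purinergic and chemotactic receptors 1 fell, Cxcr4 (-0.57), which lost its call in 5 of the 6 fits, all but that without Cre replicate 1 (0.0509 to 0.101). Of 14 TREM2-DAP12 signaling genes 1 rose, the kinase Lyn (0.21), which lost its call in 5 of the 6 fits, all but that without Mef2aKO replicate 1 (0.0568 to 0.234). None of 25 tested cell cycle genes (median 0.145) and none of 24 oxidative phosphorylation genes (median -0.0274) passed.

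Most of the tested MHC class II genes and markers of border macrophages fell, beside 2.81% of all tested genes. Of 8 tested class II genes, 5 fell and none rose (median -0.8), and 3 passed without Mef2aKO replicate 2. H2-Aa had 12.8, 7.50 and 14.9 CPM in Mef2aKO libraries, against 33.8, 32.5 and 35.2 CPM in Cre libraries (-1.53 ± 0.35, adjusted p = 0.0049, and 0.0545 without Mef2aKO replicate 2). H2-Eb1 averaged 9.23 ± 2.85 CPM in Mef2aKO and 29.2 ± 2.17 CPM in Cre (-1.65 ± 0.30, adjusted p = 0.000419), H2-Ab1 41.4 ± 2.89 and 72.9 ± 4.87 CPM (-0.82 ± 0.19, adjusted p = 0.00577), and Ciita, the master activator of the class, 0.569 ± 0.175 and 3.03 ± 1.29 CPM (-2.40 ± 0.51, adjusted p = 0.00256). Cd74, the invariant chain, was the fifth. The peptide-loading genes H2-DMa (0.23), H2-DMb1 (0.08) and H2-DMb2 (0.41) did not pass. Of 8 border macrophage markers, 5 fell and none rose (median -1.67), and leaving out Mef2aKO replicate 1 or Mef2aKO replicate 2 left 2 and leaving out Cre replicate 1 left 3. Mrc1, the mannose receptor, had 16.9, 9.71 and 14.5 CPM in Mef2aKO libraries, against 49.1, 43.3 and 37.7 CPM in Cre libraries (-1.65 ± 0.36, adjusted p = 0.00319). F13a1 (4.14 ± 0.778 CPM in Mef2aKO and 15.3 ± 1.83 CPM in Cre, adjusted p = 0.00651, and 0.0511 without Mef2aKO replicate 1) and the haemoglobin scavenger receptor Cd163 (2.77 ± 1.08 and 10.8 ± 0.902 CPM, adjusted p = 0.0395) followed, and Cd163 lost the call when any 1 library was left out (0.0638 to 0.189). The summed level of the 8 markers was 59.6 to 71.1 CPM in Mef2aKO libraries and 126 to 152 CPM in Cre libraries, with none of the 8 at 0. The part of border macrophages in the class II change was not tested.

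A stretch of chromosome 1 held many of the changed genes. Of 213 windows of 10 Mb with at least 20 tested genes, the one from 170 to 180 Mb had the highest share past the threshold, 25 of 99 genes (25.3%, 9 higher and 16 lower), against 4.44% in the median window and 20.5% in the next highest. It was singled out after seeing the values, and 622 of 13105 genes (4.75%) passed outside it. Its Ifi200 family members, whose proteins sense DNA or answer interferon, went both ways. Ifi202b and Aim2 (0.33 ± 0.06, adjusted p = 0.000816) rose. Ifi213 lay below every Cre library in all 3 Mef2aKO libraries (-2.62 ± 0.35, adjusted p = 4.2e-06), and Ifi204 (-1.27 ± 0.15), Ifi207 (-0.94 ± 0.12), Ifi209 (-1.37 ± 0.15) and Mndal (-3.12 ± 0.64) fell. Counts of such near-identical paralogs may be split between them, which leaves the level of any 1 of them uncertain. Igsf8, a tetraspanin partner, had 340.0, 368 and 357 CPM in Mef2aKO libraries, against 147, 141 and 151 CPM in Cre libraries (1.28 ± 0.08, adjusted p = 9.96e-13). SLAM family genes lie there as well, and of 8 tested, Slamf6 (49.5 ± 2.21 CPM in Mef2aKO and 27.6 ± 2.40 CPM in Cre, 0.84 ± 0.12, adjusted p = 1.06e-05) and Slamf8 (0.57 ± 0.11, adjusted p = 0.000459) rose, Cd48 fell (-0.39 ± 0.07, adjusted p = 0.000356), and Ly9, whose product defines the gate, did not pass. F11r, which encodes a junctional adhesion molecule, Uap1, Olfml2b, Igsf9 and Kcnj10 were further members. The same window had 27.3% of its tested genes past the threshold in CD229neg cells, 30.3% in CD11cpos cells and 26.3% at baseline, beside 3.70%, 4.69% and 3.84% of all genes. Nnt, which is disrupted in the C57BL/6J substrain as background, had 122, 117 and 121 CPM in Mef2aKO libraries, against 71.6, 71.7 and 74.7 CPM in Cre libraries (0.72 ± 0.07, adjusted p = 5.12e-09), a gene chosen after its values were seen. Of 23 tested genes within 5 Mb of Mef2a on chromosome 7, 3 passed: Tjp1 rose (0.42 ± 0.06), and Igf1r (-0.66 ± 0.07) and Chsy1 (-0.33 ± 0.06) fell. Of these 23 genes 4.35% rose and 8.7% fell, beside 2.09% and 2.81% of all tested genes. Those shares rest on 1 and 2 genes, and their difference from all genes was not tested. DNA of another strain near an engineered allele or elsewhere was not tested.

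**Figure D4:**
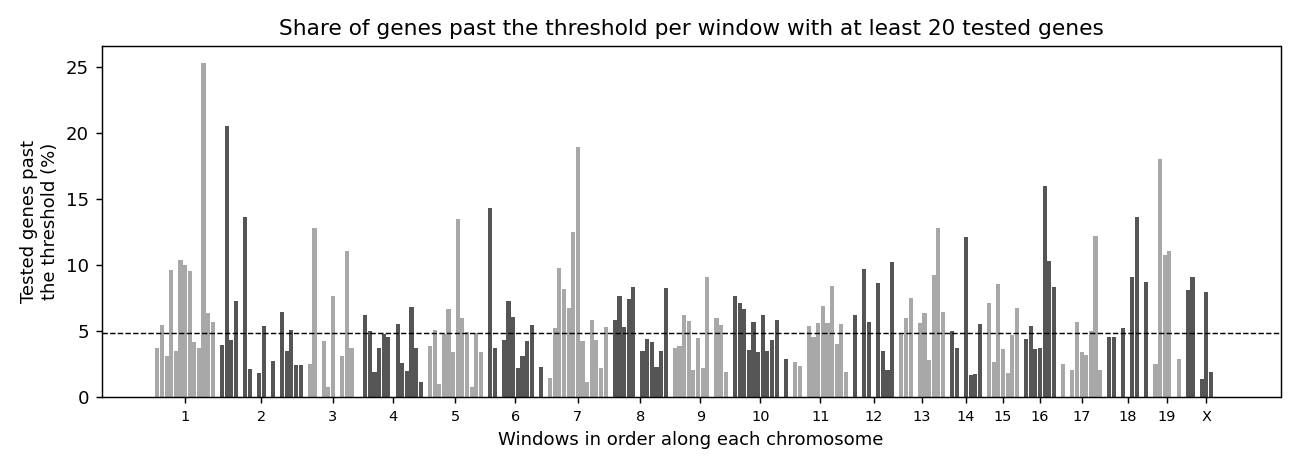
Bars give the percentage of tested genes past the threshold in each window of 10 Mb with at least 20 tested genes, in order along chromosomes 1 to 19 and X, with the shades alternating by chromosome. The dashed line is the 4.90% over all genes, and the tallest bar is the window on chromosome 1 at 25.3%.

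The effect was set beside that in the neighbouring gates and in ungated baseline cells, whose contrasts share no library with it. The replicate numbers do not tell whether the cuprizone gates were sorted from the same pools, so their overlaps may not be independent. Residual correlations of same-numbered libraries of the same genotype, double-positive against CD229neg or CD11cpos, were -0.0232 to 0.143. The main fit took all libraries as separate. In CD229neg cells 488 genes passed (3.70%), in CD11cpos cells 619 (4.69%) and at baseline 507 (3.84%). Of the 647 genes, 311 passed in the same direction in CD229neg cells (48.1% of the 647 and 63.7% of the 488), 335 in CD11cpos cells (51.8% and 54.1%) and 135 at baseline (20.9% and 26.6%). In all 3 cuprizone gates 250 genes passed the same way, 91 higher and 159 lower, and 91 genes did so in these gates and at baseline. Gpnmb averaged 102 ± 18.2 CPM in Mef2aKO and 236 ± 17.3 CPM in Cre double-positive cells, 63.2 ± 16.1 and 149 ± 9.24 CPM in CD229neg cells, and 200.2 ± 30.2 and 268 ± 13.9 CPM in CD11cpos cells. Cybb averaged 27.6 ± 4.39 CPM in Mef2aKO and 105 ± 2.25 CPM in Cre double-positive cells, 28.5 ± 7.32 and 119 ± 4.35 CPM in CD229neg cells, and 121 ± 21.4 and 382 ± 15.1 CPM in CD11cpos cells, for Mef2aKO and Cre in each.

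The direct test of the difference from CD229neg cells found no gene past the threshold in edgeR (0 of 13204) or in DESeq2 (0). At an unadjusted p under 0.05 in edgeR there were 471, a share of the 13204 that is itself below 0.05. Within Cre mice the step from CD229neg to CD229pos cells had 730 genes past the threshold (5.53%) and within Mef2aKO mice 62 (0.470%), and the same interaction is the test of whether these steps differ. Of the 647 genes, 164 (25.3%) were also among the 730 (22.5% of them), comparisons that share the Cre double-positive libraries. Ly9 itself rose over that step by 3.42 in Mef2aKO and by 2.83 in Cre on the log2 scale, as the sort requires.

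Against CD11cpos cells, 7 genes differed (0.0530%). Leaving out 1 library gave 1 without Mef2aKO replicate 1 or Mef2aKO replicate 2, 4 without Mef2aKO replicate 3 and 2 without Cre replicate 3. Ikbke, a kinase of interferon and NF-kB signalling, averaged 31.3 ± 1.37 CPM in Mef2aKO and 73.0 ± 5.88 CPM in Cre double-positive cells, and 75.2 ± 5.09 and 97.9 ± 4.13 CPM in CD11cpos cells. Its fall was larger by 0.84 ± 0.15 on the log2 scale in double-positive cells (difference -0.84, adjusted p = 0.0168). Slamf7, a SLAM receptor, averaged 4.56 ± 0.648 CPM in Mef2aKO and 3.27 ± 0.585 CPM in Cre double-positive cells, and 7.63 ± 1.52 and 25.5 ± 3.12 CPM in CD11cpos cells (difference 2.20 ± 0.37, adjusted p = 0.0168). The guidance receptor Epha2 (0.50 in double-positive and 1.18 in CD11cpos cells), the phosphodiesterase Pde2a (0.18 and 1.09) and the folate receptor Folr2 (-0.50 and 0.42) were the other named genes. Adarb1 and Tspan9 also differed and are named here after their values were seen.

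Against baseline, 257 genes differed (1.95%), 117 with a higher (0.886%) and 140 with a lower value (1.06%) in double-positive cells. The baseline cells were ungated, so diet and gate differ together here and cannot be told apart. That count fell to 139 without Mef2aKO replicate 1, 157 without Mef2aKO replicate 2 and 163 without Cre replicate 3. Insig1 changed by 0.59 in double-positive cells and by -0.17 at baseline (difference 0.76, adjusted p = 0.0155), and Cyp51 and Stard4 differed in the same direction. Il1b (-1.08 in double-positive cells and 0.10 at baseline), Itgax (-0.76 and 0.29), Atf3 (-0.55 and 0.44) and Plin2 (-0.36 and 0.27) fell in double-positive cells and did not pass at baseline, with the difference past the threshold for each. Cycle genes Kif4 (0.33 in double-positive cells and 2.82 at baseline) and Pif1 (0.17 and 2.28) rose at baseline and did not pass in double-positive cells, as did Hmmr. Igf1 fell in both (-0.70 in double-positive cells and -2.42 at baseline), where at baseline it averaged 1.04 ± 0.360 CPM in Mef2aKO and 5.49 ± 3.76 CPM in Cre. H2-Ab1 also fell in both (-0.82 and -2.49), and at baseline all 8 border macrophage markers fell (median -2.81). In CD229neg cells 5 of these 8 markers fell and none rose (median -2.24), beside 3.70% of all genes past the threshold there. In CD11cpos cells none fell and 1 rose (median -0.694, with 6 of the 8 below 0), beside 4.69% of all genes.

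**Figure D5:**
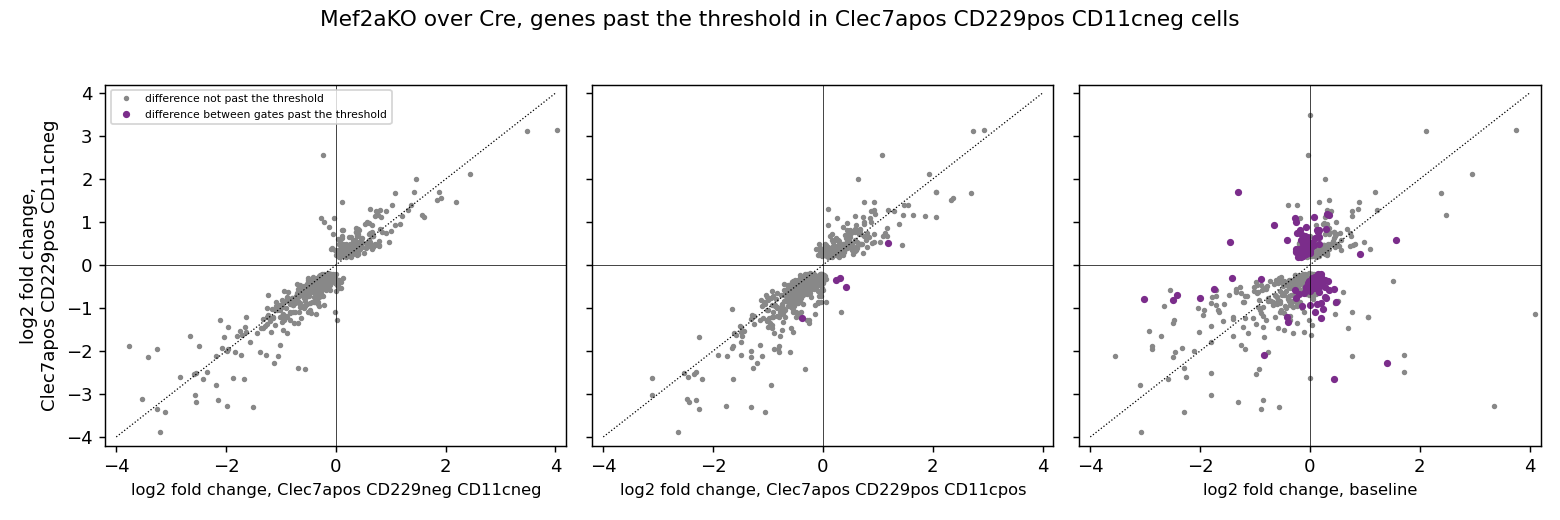
Each point is 1 of the genes past the threshold in double-positive cells, with its log2 fold change of Mef2aKO over Cre there on the y axis and in CD229neg, CD11cpos or baseline cells on the x axis of the 3 panels (6, 6 and 8 genes lie beyond the axes). Purple points passed the test of the difference, 0, 5 and 138 of the 647, and the dotted line marks equal change.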

How the data were processed

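Libraries were grouped by the labels' genotype, diet and gate. The authors deposited raw counts per gene and TPM per gene, 25124 rows with 1 RefSeq transcript each. Tools listed, per the submitters' processing notes, are HOMER 4.11, STAR 2.7.0f, DESeq2 and fastp 0.20.0, and the build is mm10/GRCm38; roles and strand setting are not given in the sources used here. The deposited TPM sum to 490800 to 512600 per library over the rows kept and served only for Mef2a.

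From the deposited counts, 29 libraries in 10 groups entered 1 model in edgeR 4.0.16 under R 4.3.3 (low genes removed by filterByExpr, TMM, 1 mean per group, 19 residual degrees of freedom, quasi-likelihood F tests, Benjamini-Hochberg over 13204 genes). Simulated counts for this contrast, with 13125 genes tested, recovered 97 of 100 genes at 2-fold and 100 of 100 at 4-fold, with 12 false calls. The changed genes were drawn from those of at least 5 CPM, and the spread was that of the fit itself. Changes under 2-fold or in lower genes were not simulated. Pairs of replicates exceeded counting noise by 1.75 to 5.77 times in chi-square, so variation between pools, and for low genes depth, sets the precision. Counting intervals and floors cover counting error only.

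Members, lists and alternatives were chosen with earlier results of these data known. Named genes were target, driver and sorting genes, the 12 largest per direction past the threshold (mean of at least 5 CPM, no overlap, no predicted genes or small RNAs), up to 4 per list and up to 4 per direction and interaction.

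Same-numbered Mef2aKO and Cre libraries had residual correlations of 0.020, 0.0730 and 0.0373, and differently numbered ones -0.0568 to 0.0189. The same-numbered values were the higher ones but small, and numbers were not taken as pairs in the main fit. Alternatives were RLE factors, no filter, DESeq2 1.42.0, only the libraries compared, replicate blocks and each library left out. Values of some genes are not reported here.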

Additional observations from a re-analysis of the deposited data

Results flagged for a closer look

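The genes here have a Mef2aKO effect that differed between double-positive cells and CD11cpos or ungated baseline cells, by edgeR's quasi-likelihood test of the interaction with Benjamini-Hochberg adjustment. Values are the effect in double-positive cells minus that in the other cells, on the log2 scale.

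Against CD11cpos cells the difference was -0.68 for Epha2, -0.92 for Folr2, -0.84 for Ikbke, -0.91 for Pde2a and 2.20 for Slamf7.

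Against baseline, sterol genes had positive differences, 0.76 for Insig1, 0.62 for Cyp51 and 1.00 for Stard4. The purinergic receptors differed by 0.44 (P2ry12) and 0.47 (P2ry13). Inflammatory and activation genes had negative differences, -1.18 for Il1b, -1.05 for Itgax, -0.99 for Atf3, -1.43 for Ikbke, -0.44 for Tnfaip3 and -0.63 for Plin2, while the chemokine Ccl12 differed by 0.76.

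Among the largest changes, the difference was 3.01 for Pcp4, 1.04 for Kcnip3, 0.88 for Sgsh, 0.83 for Slco4a1 and -1.25 for Myo18b. SLAM genes differed by -0.44 (Cd48) and -0.99 (Slamf8), the factor gene Etv5 by 0.35, Epha2 by 0.47 and the myelin gene Mbp by -0.48.

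H2-Ab1 and Igf1 fell in both and differed by 1.67 and 1.72. The macrophage gene Ms4a7 (difference 3.24), the scavenger receptor Cd36 (2.33) and Ccdc162 (2.25) fell at baseline and did not pass in double-positive cells (0.38, -0.36 and 0.26). The cycle genes Kif4, Hmmr and Pif1 differed by -2.49, -2.08 and -2.11, and the heat shock gene Hspa1b by -3.18. With only the libraries compared, the differences of Cd36 (adjusted p = 0.162), Kif4 (0.0993), Pif1 (0.0974) and Hspa1b (0.120) did not pass. Hspa1b averaged 0.750 CPM in Mef2aKO and 3.24 CPM in Cre double-positive cells. Its difference passed in only 1 of the fits without 1 library, that without Mef2aKO replicate 2 (otherwise 0.0561 to 0.142).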

How the results depend on the processing

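The count of 647 genes was 642 with RLE factors, 720 with DESeq2, 802 without a filter and 819 with only the 6 libraries, and 425 to 549 with each library left out. The replicate block over the 6 libraries gave 984 genes and 101 list members, against 61 in the fit of 29 libraries and 46 to 57 with a library left out. Residual correlations of same-numbered Mef2aKO and Cre libraries were small (0.020 to 0.0730), but each lay above those of differently numbered ones (-0.0568 to 0.0189). Of the 647, 625 remained past the threshold with RLE factors, 637 with DESeq2 and 610 with only the 6 libraries. Of 80 named genes, 78 to 80 kept side and direction in the 5 settings that use every library of the gate and 63 to 73 with a library left out, and none reversed.

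For the difference from CD229neg cells, 0 genes became 4 without a filter and 0 to 1 with a library left out. For that from CD11cpos cells, 7 became 33 without a filter, 15 with DESeq2, 19 with only the 12 libraries, 32 with a replicate block nested in genotype, and 1 to 7 with a library left out. For that from baseline, 257 became 517 without a filter, 79 with only the 12 libraries, and 139 to 222 with a library left out. The causes of these shifts were not tested. Fits of only the compared groups estimate the spread from fewer libraries, and the part of this was not tested either. Of 15 immediate early genes, 3 became 10 without a filter and 10 with only the 6 libraries. Lyn passed at 0.0412 and not with RLE factors (0.0556). With 3 pools a group, depth limits genes under a few CPM.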
